A study of Homo sapiens with 9 samples.

Results

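The 32 genes described here are targets of the transcription factor p53, and they were taken by a list of names from the 60683 genes of the count files. They were compared among cells kept in oxaliplatin, cells kept in sorafenib and untreated cells. The list of genes was chosen with earlier results of these data known. Of the 32, 27 passed the filter on low counts and were tested among 16159 genes, and the other 5 are given by their counts. Against untreated cells, 12 of the 27 passed the test (adjusted p under 0.05) in oxaliplatin (9 higher and 3 lower), where 31.7% of all genes tested did (16.2% higher and 15.5% lower). In sorafenib 6 passed it (5 higher and 1 lower), where 4.8% of all genes did.

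p53 binds DNA at a pair of short half-sites and switches on genes that slow division, repair DNA, limit growth signals or lead to cell death. DNA damage and other stress stop its degradation, which is driven by MDM2, and MDM2 is itself switched on by p53, so that the pathway carries its own brake. In intestinal epithelium and in colorectal tumours this response is known for its part in the reaction to DNA-binding drugs.

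Messenger RNA was sequenced from cells labelled HCT-15, a colorectal adenocarcinoma line grown in RPMI medium with serum. Oxaliplatin, a platinum drug that binds DNA, was given to 3 libraries' cells at 0.5 µM for 7 days, then stepwise at 1, 2 and 4 µM between day 10 and day 30, and kept at 4 µM. Sorafenib, an inhibitor of RAF and receptor tyrosine kinases, was applied to the cells of 3 more libraries in a like manner, at doses the labels do not give. The remaining 3 libraries came from untreated cells. The labels give the genotype of every group as WT. They call the drug-treated cells resistant lines and do not say whether they are clones or mixed populations. Nothing in the labels says that the libraries of a group came from separate cultures, so a p-value here reflects the spread among these libraries alone, and that spread may be technical.

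The libraries held 15797076 to 20936536 counts. Within a group no pair of libraries matched to within counting error (chi-square over its degrees of freedom, 16.9 to 36.3), and each was counted as a sample. On the first principal component, which held 35.4% of the variance, untreated 1 (-24.9) lay beside sorafenib 1 (-23.7) and apart from untreated 2 and 3 (-63.0 and -47.9). The second component (17.85%) set untreated 1 (1.57) apart from the sorafenib libraries (34.2 to 41.4) and from untreated 2 and 3 (-30.9 and -26.5). The data went against the labelled tissue. All 12 markers of colorectal epithelium had a median under 1 CPM (counts scaled to a library of fixed size), 8 of them had no count in any library, and the gene of the epithelial adhesion molecule EPCAM did not exceed 1.38 CPM. Of 10 renal epithelial markers, 5 had a median of 10 CPM or more and EMX2 had no count. Their summed level was 750 to 788 CPM in oxaliplatin, 678 to 736 CPM in sorafenib and 467 to 615 CPM in untreated libraries. The summed colorectal markers stood at 0.550 to 0.705, 0.568 to 1.25 and 1.53 to 8.65 CPM in the same 3 groups. Mitochondrial genes held 9.56 to 11.9% of the counts in oxaliplatin, 10.1 to 11.1% in sorafenib and 8.44 to 9.94% in untreated libraries. Summed renal markers were higher in every drug-treated library than in every untreated one, but the single markers differed. HAVCR1 averaged 217 CPM in oxaliplatin, 151 CPM in sorafenib and 71.8 CPM in untreated libraries, and PAX8 averaged 306, 395 and 294 CPM. In oxaliplatin PAX2, HAVCR1, CDH16, CUBN and SLC17A3 were called higher and LRP2 lower. LHX1 was lower in every drug-treated library than in every untreated one. The colorectal sum was lower in the drug-treated libraries, with VIL1 at 6.91 and 7.27 CPM in untreated 2 and 3 and 0.176 CPM in untreated 1. Mitochondrial shares of oxaliplatin and untreated libraries overlapped. The part of these levels in the results was not tested. In RNA from whole cultures, fewer cells of a type and less RNA per cell cannot be told apart.

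Levels are in CPM scaled by TMM factors, listed for libraries 1 to 3 of a group, and fold changes are log2 values with standard errors. P-values come from the quasi-likelihood test of edgeR and were adjusted over all 16159 genes by the Benjamini-Hochberg method, and a gene passed the test at an adjusted p under 0.05. In sorafenib against untreated cells 2.82% of all genes were called higher and 1.97% lower. In oxaliplatin against sorafenib 10.3% passed (5.2% higher and 5.07% lower). The 27 tested p53 targets stood at 44.4% in oxaliplatin and 22.2% in sorafenib against untreated cells, and at 22.2% between the drugs.

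**Figure D1:**
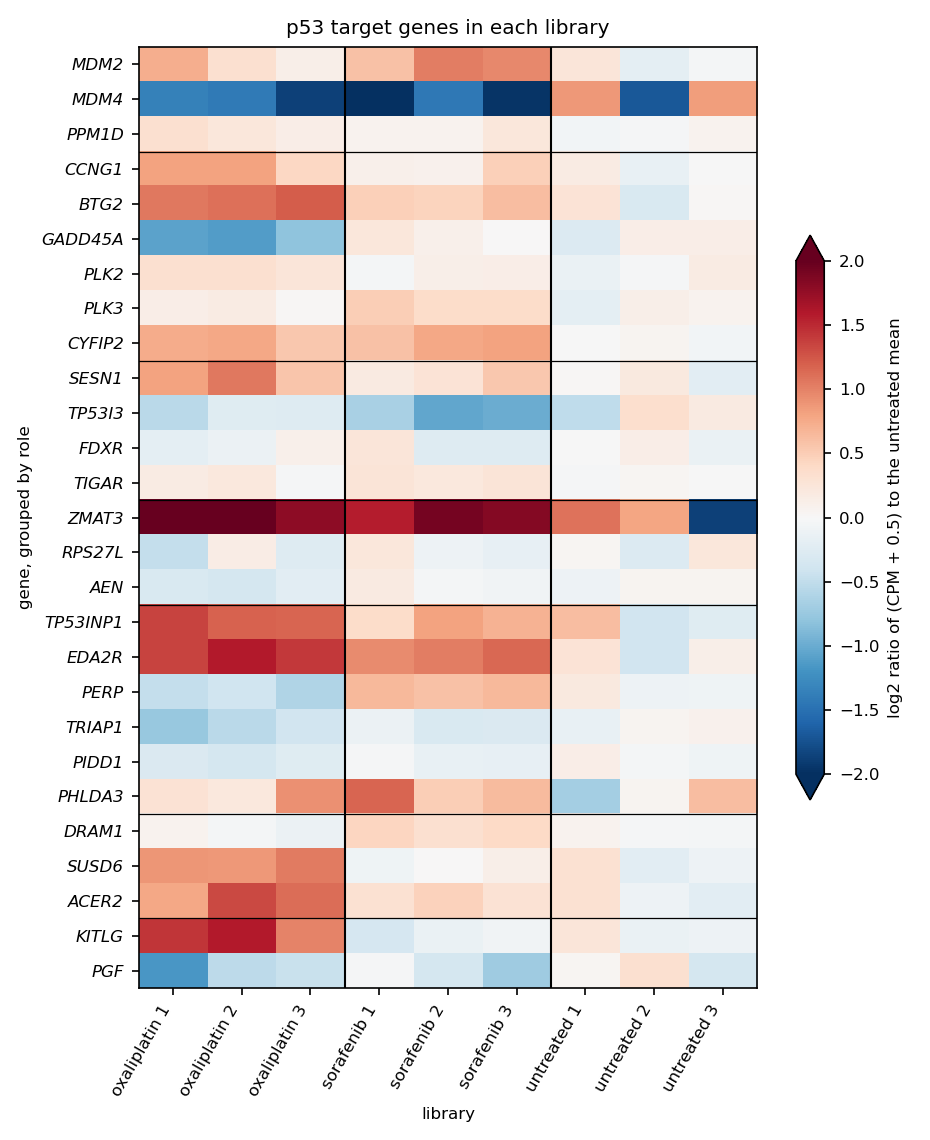
Colour gives the log2 ratio of each gene's level in a library (CPM plus 0.5) to its mean in the 3 untreated libraries, for the 27 tested p53 targets (rows, grouped by role) in the 9 libraries (columns). Colours end at -2 and 2. BTG2, EDA2R, SUSD6 and KITLG are higher in all 3 oxaliplatin libraries, GADD45A is lower in them, and MDM4 and ZMAT3 differ widely among the untreated libraries.

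Promoter sequence was read for the 27 of the 32 genes found in the RefSeq table (GRCh38.p14), as 39 windows from 250 bases before to 50 bases after each transcript start. The p53 response element consensus was searched, since it is the sequence that p53 binds. It consists of 2 copies of a 10-base half-site that reads the same on both strands. A single full half-site stood in 5 of the 39 windows (12.8%), in AEN, FDXR, PLK2, RPS27L and SESN1, against 6.63% of 35116 windows of all genes in the table and 5.77% of the windows of genes tested. None of the 39 windows held a pair of full half-sites at most 13 bases apart. Such a pair stood in 0.0285% of all windows and 0.0263% of those of genes tested. A looser search took a 20-base run of 2 adjoining half-sites with at most 2 bases off the consensus. It found 4 windows (10.3%) of 3 genes (AEN, GLS2 and MDM2), against 0.649% of all windows and 0.461% of those of genes tested. Overlapping windows of MDM2 held the same run. By gene the share was 11.1%, against 0.82% of all genes in the table and 0.661% of genes tested. The lines below show this run for AEN and MDM2, and a single half-site for PLK2 and SESN1, in capitals, with the bases around it, 5′ to 3′ on the strand of the gene. The AEN and MDM2 windows are chr15:88621286-88621339 and chr12:68808903-68808962, both on the plus strand, and those of PLK2 and SESN1 are chr5:58460184-58460243 and chr6:109009003-109009062, both on the minus strand.
AEN: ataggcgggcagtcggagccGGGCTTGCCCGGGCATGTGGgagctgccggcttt
MDM2: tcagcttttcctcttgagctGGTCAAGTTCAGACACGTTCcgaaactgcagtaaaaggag
PLK2: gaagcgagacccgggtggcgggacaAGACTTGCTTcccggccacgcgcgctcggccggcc
SESN1: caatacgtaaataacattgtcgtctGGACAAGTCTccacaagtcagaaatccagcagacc
The runs began 34 bases before the AEN start and 94 bases before an internal start of MDM2, and the half-sites 132 and 49 bases before starts of PLK2 and SESN1. Of these genes SESN1 rose in oxaliplatin and MDM2 in sorafenib, while AEN and PLK2 were called in neither drug. A match of letters is a description and not a bound site, and elements outside these windows were not searched. The genes were chosen for the list as p53 targets. A higher share of such sites than in all promoters may come with that choice and is no result of these libraries. GADD45A, TP53INP1, PHLDA3, CMBL and TNFRSF10C were not in the table.

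The 3 regulators of p53 in the set gave 1 call, in sorafenib against untreated cells, where 4.8% of all genes tested were called. They gave none in oxaliplatin, where 31.7% of all genes were called. MDM2 (chr12:68808177-68850686, GRCh38 as in the files), the ubiquitin ligase that marks p53 for degradation, had 152, 115 and 99.6 CPM in oxaliplatin, 138, 187 and 178 CPM in sorafenib and 109, 79.7 and 89.0 CPM in untreated libraries. The sorafenib libraries all lay above the untreated ones, while oxaliplatin 3 lay below untreated 1. MDM2 rose in sorafenib (log2 fold change 0.86 ± 0.19, adjusted p = 0.0343) and was not called in oxaliplatin (0.40 ± 0.18, adjusted p = 0.123) or between the drugs (-0.46 ± 0.18, adjusted p = 0.138). Its sorafenib call was lost without untreated 2 or 3 (adjusted p = 0.130 and 0.114), without oxaliplatin 2 (0.0532), and without sorafenib 2 or 3 (0.133 and 0.123). With a correction for GC content and exon length, MDM2 was lower in oxaliplatin than in sorafenib with an adjusted p of 0.00832. Its value against untreated cells in oxaliplatin then turned to -0.13.

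MDM4 (chr1:204516379-204558120), the MDM2 relative that masks the activation domain of p53, had 11.7, 11.2 and 8.02 CPM in oxaliplatin, 4.24, 11.1 and 7.50 CPM in sorafenib and 56.6, 9.12 and 55.1 CPM in untreated libraries. Untreated 2 lay with the drug-treated libraries, and the other 2 untreated libraries lay far above them. The log2 fold change was -1.96 ± 0.64 in oxaliplatin (adjusted p = 0.0501) and -2.40 ± 0.66 in sorafenib (adjusted p = 0.0735), so neither was called. Without untreated 2 the adjusted p was 0.00689 in oxaliplatin and 0.0103 in sorafenib. With all libraries kept, MDM4 was also called lower in both drugs by DESeq2 (adjusted p = 0.0155 in oxaliplatin and 0.00886 in sorafenib) and with the GC and length correction (0.0214 and 0.0452). Among the untreated libraries the highest MDM4 level was 5.94 times the lowest, a ratio larger than that of 99.2% of the genes tested, and 37 genes stood at least 4-fold lower in untreated 2 than in both other untreated libraries.

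PPM1D (chr17:60600183-60666280), the phosphatase that reverses damage-induced phosphorylation of p53, had 49.6, 46.3 and 43.1 CPM in oxaliplatin, 41.3, 41.5 and 46.4 CPM in sorafenib and 38.0, 39.0 and 41.5 CPM in untreated libraries. All 3 oxaliplatin libraries lay above the untreated ones by a small margin, with a log2 fold change of 0.23 ± 0.11 (adjusted p = 0.121).

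Genes listed under cell cycle and growth restraint were called in both directions in oxaliplatin. Of the 6 in the set, CCNG1, BTG2 and CYFIP2 rose, GADD45A fell, and PLK2 and PLK3 were not called. Over all genes tested, 16.2% were called higher there and 15.5% lower. The heading describes CYFIP2, an actin regulator, only loosely. BTG2 (chr1:203305491-203309602), an antiproliferative partner of the mRNA deadenylation machinery, had 19.3, 20.02 and 21.6 CPM in oxaliplatin, 12.8, 12.5 and 14.1 CPM in sorafenib and 11.0, 7.30 and 9.28 CPM in untreated libraries. The 3 groups did not overlap, with sorafenib between the others. BTG2 rose 2.21-fold in oxaliplatin (1.14 ± 0.16, adjusted p = 0.00207) and was higher in oxaliplatin than in sorafenib (0.63 ± 0.16, adjusted p = 0.0377). Its value in sorafenib was 0.51 ± 0.16 (adjusted p = 0.0926, and 0.0364 without untreated 1). The call between the drugs was lost without any 1 library of either drug or without untreated 3 (adjusted p between 0.0578 and 0.108).

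CCNG1 (chr5:163437569-163446151), the gene of cyclin G1, had 92.0, 92.7 and 70.3 CPM in oxaliplatin, 56.7, 55.7 and 73.8 CPM in sorafenib and 59.0, 47.3 and 52.3 CPM in untreated libraries. The oxaliplatin and untreated libraries did not overlap. It rose in oxaliplatin (0.68 ± 0.16, adjusted p = 0.0107), with values of 0.23 ± 0.16 in sorafenib (adjusted p = 0.387) and 0.45 ± 0.16 between the drugs (adjusted p = 0.0944, and 0.0444 without oxaliplatin 3). CYFIP2 (chr5:157266079-157395595), a subunit of the WAVE actin-regulating complex, had 91.7, 93.5 and 79.6 CPM in oxaliplatin, 81.7, 93.1 and 95.2 CPM in sorafenib and 54.3, 56.9 and 52.4 CPM in untreated libraries. Every drug-treated library lay above every untreated one. CYFIP2 rose by 0.69 ± 0.11 in oxaliplatin (adjusted p = 0.00273) and by 0.72 ± 0.11 in sorafenib (adjusted p = 0.00933). The sorafenib call was lost without untreated 3 (0.0517) or sorafenib 3 (0.0533).

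GADD45A (chr1:67685201-67688334), a stress-induced growth arrest gene, had 92.5, 89.7 and 111 CPM in oxaliplatin, 228, 208 and 195 CPM in sorafenib and 161, 213 and 214 CPM in untreated libraries. The oxaliplatin libraries lay below all others. It fell 2.01-fold in oxaliplatin against untreated cells (-1.0045 ± 0.14, adjusted p = 0.00177) and 2.15-fold against sorafenib (-1.11 ± 0.14, adjusted p = 0.00156), with 0.10 ± 0.14 in sorafenib (adjusted p = 0.684). PLK2, a kinase of centriole duplication, had 409 to 433 CPM in oxaliplatin, 335 to 381 CPM in sorafenib and 315 to 388 CPM in untreated libraries, and its oxaliplatin value was 0.29 ± 0.11 (adjusted p = 0.0646). PLK3, a stress-responsive kinase of the same family, stood at 0.11 ± 0.14 in oxaliplatin (adjusted p = 0.580) and 0.41 ± 0.14 in sorafenib (adjusted p = 0.0980).

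**Figure D2:**
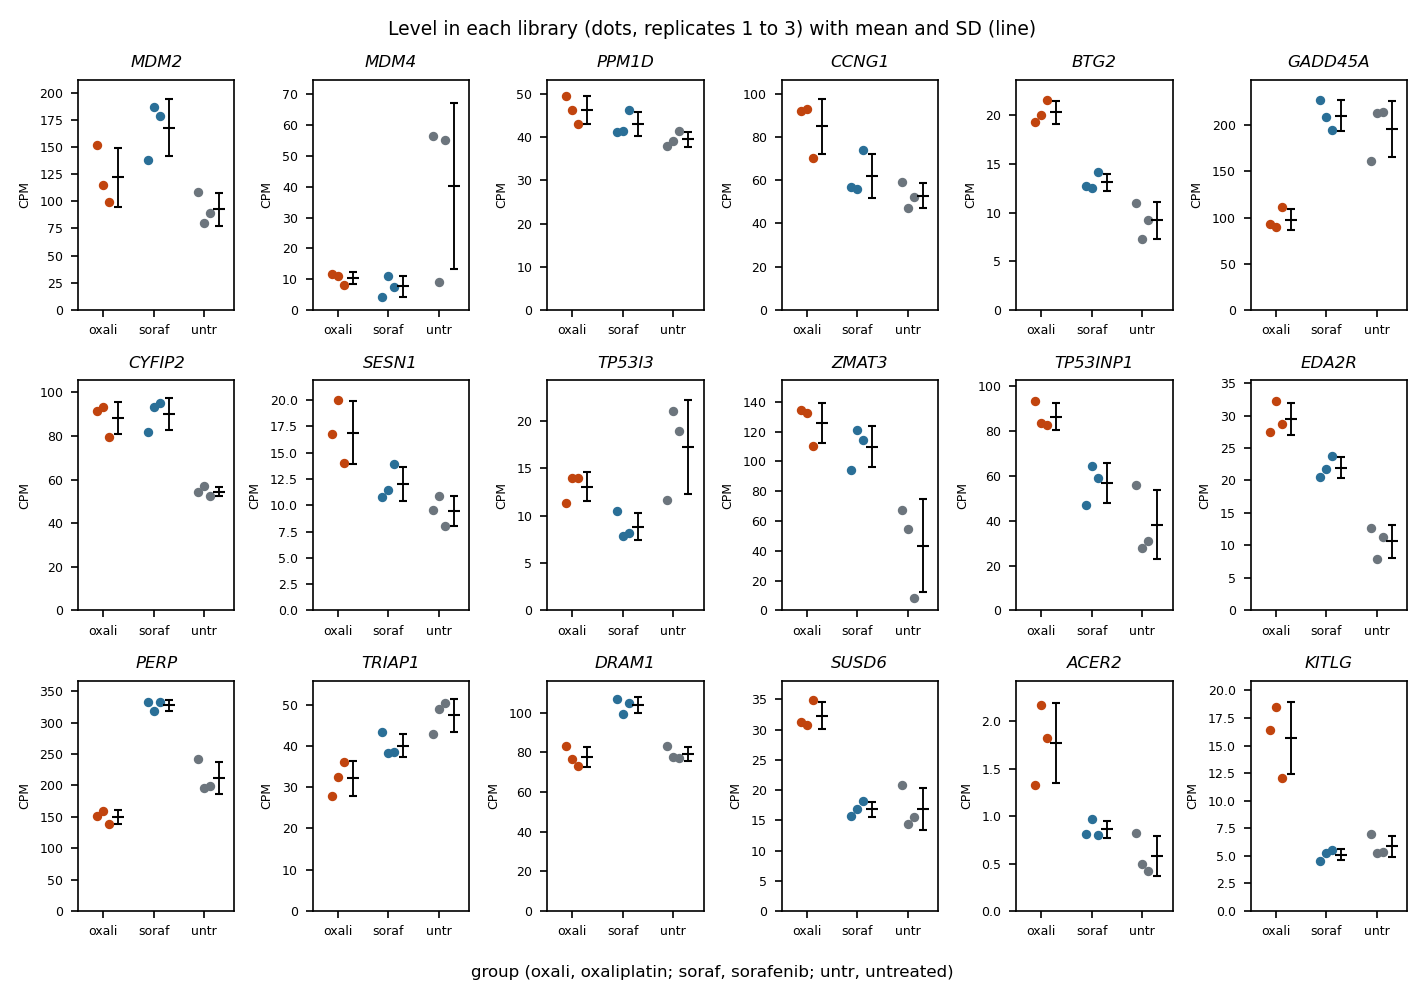
Dots give the level in CPM in each of the 9 libraries, and the line beside them gives the group mean with its SD (n = 3), for 18 p53 targets. Groups run from oxaliplatin through sorafenib to untreated cells, and each axis starts at 0. PERP is lowest in the 3 oxaliplatin libraries (139 to 159 CPM) and highest in the 3 sorafenib libraries (318 to 332 CPM).

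The 4 tested genes of nutrient and redox control gave 1 call in each drug against untreated cells. The shares of all genes tested were 31.7% in oxaliplatin and 4.8% in sorafenib. SESN1 (chr6:108986437-109094819), a sestrin that restrains mTORC1, had 16.7, 20.02 and 14.0 CPM in oxaliplatin, 10.8, 11.5 and 13.9 CPM in sorafenib and 9.56, 10.8 and 8.01 CPM in untreated libraries. Oxaliplatin lay above untreated in every library, and SESN1 rose there (0.84 ± 0.18, adjusted p = 0.00918). Its value in sorafenib was 0.35 ± 0.19 (adjusted p = 0.269). TP53I3 (chr2:24077433-24085861), a quinone oxidoreductase tied to oxidative stress, had 11.3, 13.9 and 13.9 CPM in oxaliplatin, 10.4, 7.89 and 8.15 CPM in sorafenib and 11.6, 21.1 and 18.9 CPM in untreated libraries. The sorafenib libraries lay below all untreated ones, and untreated 1 lay nearest to them. TP53I3 was the only tested target called lower in sorafenib (-0.96 ± 0.23, adjusted p = 0.0431), and that call was lost without untreated 2 or 3, any oxaliplatin library, or sorafenib 2 or 3 (adjusted p between 0.0553 and 0.167), with the GC and length correction (0.0547) and in a fit of the 2 groups alone (0.0832). In oxaliplatin it stood at -0.40 ± 0.22 (adjusted p = 0.195, and 0.0294 without untreated 1).

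FDXR, the ferredoxin reductase of mitochondria, had 36.1 to 44.3 CPM in oxaliplatin, 34.7 to 49.2 CPM in sorafenib and 37.8 to 45.5 CPM in untreated libraries, and no comparison called it (adjusted p of 0.761 or more). TIGAR, a phosphatase that slows glycolysis, stood at 0.12 ± 0.10 in oxaliplatin and 0.25 ± 0.10 in sorafenib, with adjusted p of 0.383 and 0.171, and 42.6% of its exon length also belongs to a same-strand transcript, AC008012.1. GLS2, a mitochondrial glutaminase, had 1 to 7 counts a library and was not tested, and 77.1% of its exon length overlaps SPRYD4 on the opposite strand. CMBL, a hydrolase, had 3 counts in oxaliplatin 1, 2 in sorafenib 3 and none elsewhere. Where no read was counted, the level may still reach 3 counts, which is 0.143 to 0.190 CPM in these libraries (counting error only).

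None of the 3 genes acting on RNA and ribosomes was called, where 35.3% of all genes tested were called in at least 1 comparison. ZMAT3 (chr3:178960121-179072215), an RNA-binding zinc finger protein that acts in splicing, had 134, 132 and 110.2 CPM in oxaliplatin, 94.4, 121 and 114 CPM in sorafenib and 67.2, 54.8 and 8.27 CPM in untreated libraries. Every drug-treated library lay above every untreated one, and untreated 3 lay far below the other 2. The log2 fold change was 1.53 ± 0.61 in oxaliplatin (adjusted p = 0.0904) and 1.34 ± 0.61 in sorafenib (adjusted p = 0.214). Without untreated 3 the adjusted p in oxaliplatin was 0.00864. The highest untreated ZMAT3 level was 7.71 times the lowest, above the ratio of 99.5% of the genes tested, and 36 genes stood at least 4-fold lower in untreated 3 than in both other untreated libraries. RPS27L, a ribosomal protein S27 relative, and AEN, a nuclease that acts in apoptosis, stood at -0.19 ± 0.19 and -0.29 ± 0.11 in oxaliplatin (adjusted p = 0.474 and 0.0634). The AEN value in oxaliplatin passed the test without sorafenib 1 (0.0407) and with the GC and length correction (0.0377).

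Genes of cell death and its restraint were called in both directions. Of 6 tested, TP53INP1 and EDA2R rose and PERP and TRIAP1 fell in oxaliplatin, and EDA2R and PERP rose in sorafenib. Over all genes tested, 16.2% were called higher and 15.5% lower in oxaliplatin, and 2.82% were called higher in sorafenib. PERP alone of the 6 was called between the drugs, where 10.3% of all genes were called. EDA2R (chrX:66595637-66639298), a death-domain-lacking receptor of the TNF receptor family that binds ectodysplasin A2, had 27.4, 32.2 and 28.6 CPM in oxaliplatin, 20.5, 21.7 and 23.7 CPM in sorafenib and 12.7, 7.85 and 11.3 CPM in untreated libraries. No group overlapped another. EDA2R rose 2.77-fold in oxaliplatin (1.47 ± 0.18, adjusted p = 0.00127) and 2.07-fold in sorafenib (1.05 ± 0.18, adjusted p = 0.0148), and the difference between the drugs was 0.42 ± 0.17 (adjusted p = 0.148). The sorafenib call was lost without untreated 3 (0.0527), sorafenib 2 (0.0600) or sorafenib 3 (0.0707).

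PERP (chr6:138088505-138107419), a desmosomal membrane protein that acts in apoptosis, had 151, 159 and 139 CPM in oxaliplatin, 332, 318 and 332 CPM in sorafenib and 242, 196 and 199 CPM in untreated libraries. The untreated libraries lay between the drugs with no overlap. PERP fell in oxaliplatin (-0.50 ± 0.11, adjusted p = 0.00889), rose in sorafenib (0.63 ± 0.11, adjusted p = 0.0174) and was 2.19-fold lower in oxaliplatin than in sorafenib (-1.13 ± 0.11, adjusted p = 0.00044). The sorafenib call was lost without untreated 2 or 3 (0.0812 and 0.0761) or sorafenib 2 or 3 (0.0639 and 0.0805), while the difference between the drugs passed under every alternative run. Of the 27 targets, PERP alone was called in opposite directions in the drugs.

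TP53INP1 (chr8:94925972-94949378), a stress protein that acts in autophagy and cell death, had 93.1, 83.3 and 82.5 CPM in oxaliplatin, 47.0, 64.1 and 59.1 CPM in sorafenib and 56.0, 27.8 and 30.8 CPM in untreated libraries. Oxaliplatin lay above all other libraries, and untreated 1 lay among the sorafenib ones. It rose 2.26-fold in oxaliplatin (1.18 ± 0.25, adjusted p = 0.00789). In sorafenib it stood at 0.57 ± 0.24 (adjusted p = 0.181), which became 0.00891 without untreated 1, and the difference between the drugs (0.61 ± 0.24, adjusted p = 0.141) then reached 0.0207. TRIAP1 (chr12:120443964-120446384), an inhibitor of apoptosis in mitochondria, had 27.8, 32.4 and 36.2 CPM in oxaliplatin, 43.3, 38.2 and 38.6 CPM in sorafenib and 42.8, 49.0 and 50.3 CPM in untreated libraries. All oxaliplatin libraries lay below the others, and TRIAP1 fell against untreated cells (-0.56 ± 0.13, adjusted p = 0.0106).

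PIDD1, a scaffold that activates caspase-2, stood at -0.31 ± 0.12 in oxaliplatin (adjusted p = 0.0788), with 15.1 to 16.4 CPM against 18.2 to 21.4 CPM in untreated libraries. PHLDA3, an inhibitor of AKT signalling, had 73.9 to 120.4 CPM in oxaliplatin, 90.0 to 143 CPM in sorafenib and 39.8 to 98.3 CPM in untreated libraries, and these ranges overlapped. TNFRSF10C, a decoy receptor for TRAIL, had 3, 8 and 3 counts in oxaliplatin, 6, 3 and 0 in sorafenib and 0, 2 and 0 in untreated libraries and was not tested.

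SUSD6, ACER2 and DRAM1 were called in different comparisons with untreated cells, SUSD6 and ACER2 higher in oxaliplatin and DRAM1 higher in sorafenib. Of all genes tested, 16.2% and 2.82% were called higher there. These genes were listed with SPATA18 under autophagy, lysosome and mitophagy, a heading that describes DRAM1 and SPATA18 more closely than SUSD6 and ACER2. SUSD6 (chr14:69611596-69715144), a membrane protein first described as a growth inhibitor induced by DNA damage, had 31.2, 30.8 and 34.8 CPM in oxaliplatin, 15.6, 16.8 and 18.1 CPM in sorafenib and 20.8, 14.4 and 15.5 CPM in untreated libraries. Sorafenib and untreated libraries overlapped, and oxaliplatin lay above both. SUSD6 rose 1.91-fold in oxaliplatin against untreated cells (0.93 ± 0.16, adjusted p = 0.00333) and 1.91-fold against sorafenib (0.94 ± 0.16, adjusted p = 0.00641). ACER2 (chr9:19409009-19452505), the ceramidase of the Golgi, was low, with 1.33, 2.17 and 1.82 CPM in oxaliplatin, 0.815, 0.965 and 0.804 CPM in sorafenib and 0.821, 0.498 and 0.424 CPM in untreated libraries. The oxaliplatin libraries did not overlap the others. It rose 3.04-fold in oxaliplatin (1.60 ± 0.34, adjusted p = 0.00809), the largest fitted rise of the tested targets there.

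DRAM1 (chr12:101877580-102012130), a lysosomal membrane protein that promotes autophagy, had 83.0, 76.9 and 73.3 CPM in oxaliplatin, 107, 99.4 and 105 CPM in sorafenib and 83.5, 77.8 and 77.0 CPM in untreated libraries. Sorafenib lay above both other groups, which overlapped. DRAM1 rose in sorafenib (0.39 ± 0.10, adjusted p = 0.0488) and was lower in oxaliplatin than in sorafenib (-0.42 ± 0.10, adjusted p = 0.0241). The sorafenib call was lost without any 1 library other than untreated 1 (0.0502 to 0.168), and the difference between the drugs without any 1 library of either drug (0.0517 to 0.0859). SPATA18, which acts in the removal of damaged mitochondrial proteins, had 1 count in oxaliplatin 1 and none elsewhere.

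Of the secreted factors, KITLG (chr12:88492793-88580851), the ligand of the KIT receptor, had 16.5, 18.5 and 12.1 CPM in oxaliplatin, 4.51, 5.28 and 5.52 CPM in sorafenib and 6.98, 5.25 and 5.36 CPM in untreated libraries. Oxaliplatin stood apart, and the other groups overlapped. KITLG rose 2.68-fold in oxaliplatin against untreated cells (1.42 ± 0.20, adjusted p = 0.00193) and 3.07-fold against sorafenib (1.62 ± 0.20, adjusted p = 0.00151), with -0.20 ± 0.20 in sorafenib (adjusted p = 0.576). PGF, a growth factor of the VEGF family, had 0.688 to 1.46 CPM in oxaliplatin, 1.13 to 2.12 CPM in sorafenib and 1.59 to 2.82 CPM in untreated libraries, and its oxaliplatin value of -0.93 ± 0.37 was not called (adjusted p = 0.0793). PRDM1, a transcriptional repressor of lymphocyte differentiation, had 4 counts in each of oxaliplatin 3 and untreated 3 and none elsewhere.

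Set against the whole table, the 27 targets had a median log2 fold change of 0.23 in oxaliplatin, where all genes tested had 0.02, and of 0.23 in sorafenib, where all genes had 0.00. Between the drugs the medians were 0.00 and -0.01. In oxaliplatin 12 targets had every library above every untreated library and 6 had every library below, where 48.1% of all genes did either (24.9% above and 23.2% below). In sorafenib 9 lay wholly above and 1 wholly below, where 29.8% of all genes did either (15.5% and 14.3%). Between oxaliplatin and sorafenib 9 lay wholly above and 8 below, where 34.9% of all genes did either (17.3% and 17.6%). By library, the median log2 ratio of the 27 targets to the untreated mean was 0.28, 0.21 and 0.12 in oxaliplatin, 0.23, 0.11 and 0.26 in sorafenib and 0.04, -0.03 and -0.01 in untreated libraries. Scaling by library size alone moved the median of all genes in oxaliplatin to 0.13 and the higher share of all calls there to 65.4%, against 51.1% with TMM. Between the drugs that share was 64.2%, against 50.6% with TMM.

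**Figure D3:**
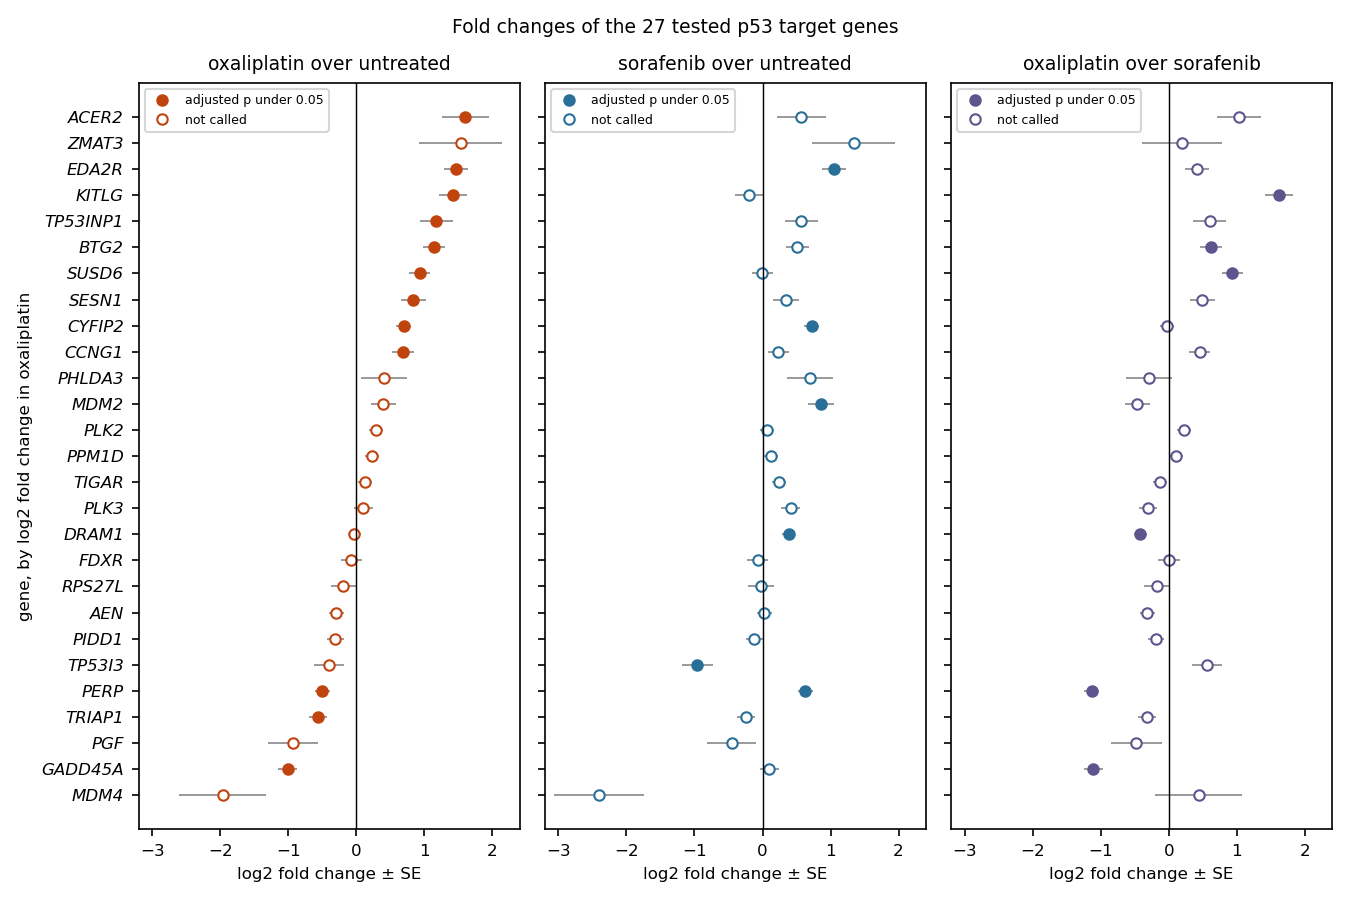
Points give the log2 fold change and bars its standard error for the 27 tested p53 targets in oxaliplatin over untreated, sorafenib over untreated and oxaliplatin over sorafenib. Filled points passed the test, and genes are ordered by the first panel. PERP is below 0 in the first panel and above 0 in the second, and the long bars of MDM4 and ZMAT3 go with untreated libraries that differ.

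By pattern of calls, CYFIP2 and EDA2R were called higher in both drugs, against the same untreated libraries. BTG2, SUSD6 and KITLG were called higher in oxaliplatin against both untreated and sorafenib libraries. CCNG1, SESN1, TP53INP1 and ACER2 were called higher in oxaliplatin against untreated cells, and their differences between the drugs did not pass (adjusted p between 0.0731 and 0.141). GADD45A was called lower in oxaliplatin against both other groups. In all 15 of the 27 targets were called in at least 1 comparison and 12 in none, where 35.3% of all genes tested were called in at least 1.

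Per length of all annotated exons of a gene, GADD45A, PLK2 and PERP were the most abundant of the 32 in untreated cells. The ranking depends on that length, which joins the exons of all transcripts and was 2069 bases for GADD45A and 9127 bases for RPS27L. In TPM, which here scales counts by that exon length, GADD45A averaged 121 in oxaliplatin, 238 in sorafenib and 207 in untreated libraries. PLK2 averaged 228, 179.5 and 159.9 TPM in the same order of groups, and PERP averaged 89.6, 179 and 109 TPM. PLK2 ranked first in oxaliplatin, and GADD45A ranked first in sorafenib and untreated libraries, where PLK2 and PERP in sorafenib were nearly level. TRIAP1 and PHLDA3 came next in untreated libraries, with means of 57.3, 65.1 and 72.1 TPM and of 74.4, 82.3 and 47.5 TPM.

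Beyond the 32 genes, 72 other p53 targets were listed, of which 69 were tested. In oxaliplatin 13 of them were called higher and 9 lower, a share of 31.9% against 31.7% of all genes, with a median log2 fold change of 0.18. In sorafenib 6 were called higher and 2 lower, 11.6% against 4.8%, with a median of 0.10. CDKN1A, which encodes the cell cycle inhibitor p21, averaged 199 ± 75.0 CPM in oxaliplatin, 117 ± 10.4 CPM in sorafenib and 67.7 ± 9.40 CPM in untreated libraries (SD, n = 3 each). Its oxaliplatin libraries held 233, 251 and 113 CPM, all above the untreated ones, and it rose there (1.56 ± 0.26, adjusted p = 0.00405). In sorafenib it stood at 0.79 ± 0.26 (adjusted p = 0.102), which became 0.0160 without oxaliplatin 3. With all sorafenib and untreated libraries kept, CDKN1A was also called higher in sorafenib by DESeq2 (0.0389) and in a fit of the 2 groups alone (0.0338). It was called higher in oxaliplatin than in sorafenib by DESeq2 (0.0363) and without oxaliplatin 3 (0.00329). RRM2B, a subunit of ribonucleotide reductase used in DNA repair, rose by 1.01 ± 0.14 in oxaliplatin (adjusted p = 0.00196) and by 0.77 ± 0.14 in sorafenib (adjusted p = 0.0222). POLH, the polymerase that copies past damaged bases, rose by 0.94 ± 0.11 in oxaliplatin (adjusted p = 0.00118) and by 0.48 ± 0.11 in sorafenib (adjusted p = 0.0405).

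The proapoptotic gene BAX fell in oxaliplatin, with 89.7 ± 16.5 CPM against 132 ± 7.97 CPM in untreated libraries (-0.55 ± 0.15, adjusted p = 0.0230). That call was lost without untreated 2 or 3 or oxaliplatin 1 or 2 (0.0515 to 0.0836), and with the GC and length correction the value was -0.21 (adjusted p = 0.0850). BBC3, the gene of PUMA, DDB2 and XPC, which recognise damaged DNA, and GDF15, a stress-induced secreted factor, had values of -0.34, -0.06, 0.22 and -0.16 in oxaliplatin and -0.09, 0.05, 0.12 and 0.09 in sorafenib, with no call. BBC3 in oxaliplatin passed without oxaliplatin 3 (0.0486), and with the GC and length correction GDF15 in oxaliplatin turned to 0.26 (adjusted p = 0.0241). That correction also called GDF15 higher in sorafenib (0.32, adjusted p = 0.0336) and XPC higher in oxaliplatin (0.32, adjusted p = 0.0202), and XPC was called with library size alone as well (0.0342).

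Of the other targets with the smallest adjusted p, TRIM22, a tripartite motif protein of the antiviral response, averaged 6.49 CPM in oxaliplatin, 1.00 CPM in sorafenib and 0.739 CPM in untreated libraries and rose in oxaliplatin (3.14 ± 0.43, adjusted p = 0.00174). LRP1, an endocytic receptor, averaged 84.9, 38.5 and 25.9 CPM in the same order and also rose in oxaliplatin (1.72 ± 0.26, adjusted p = 0.00278). E2F7, a repressor of E2F target genes, averaged 16.1, 67.8 and 33.4 CPM. It fell in oxaliplatin (-1.05 ± 0.17, adjusted p = 0.00305), rose in sorafenib (1.02 ± 0.17, adjusted p = 0.0131) and was lower in oxaliplatin than in sorafenib (-2.07 ± 0.17, adjusted p = 0.000162). ENC1, an actin-associated kelch protein, fell in oxaliplatin (-0.93 ± 0.11, adjusted p = 0.00127), as did FOSL1, a subunit of AP-1 (-1.12 ± 0.22, adjusted p = 0.0063), and KCNN4, a potassium channel (-0.76 ± 0.20, adjusted p = 0.0201).

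In sorafenib TGFA, a ligand of the EGF receptor, and TNFRSF10A, a death receptor for TRAIL, rose by 0.65 ± 0.13 and 0.65 ± 0.14 (adjusted p = 0.0250 and 0.0369). ZNF385A, a zinc finger partner of p53, averaged 12.4 CPM in sorafenib against 34.7 CPM in untreated libraries and fell (-1.48 ± 0.23, adjusted p = 0.0113), and LAPTM5, a lysosomal membrane protein, fell by 0.97 on the log2 scale (adjusted p = 0.0421). The sorafenib calls of RRM2B, POLH, E2F7, TGFA, TNFRSF10A, ZNF385A and LAPTM5 were lost without sorafenib 2 and without sorafenib 3, and each of them but ZNF385A was lost without untreated 2 as well (adjusted p between 0.0567 and 0.166). Without untreated 3 those of RRM2B, POLH, TGFA, TNFRSF10A and LAPTM5 were lost (0.0818 to 0.137). Those of POLH and LAPTM5 were lost without oxaliplatin 1 (0.0704 and 0.0676), those of POLH and TNFRSF10A without oxaliplatin 2 (0.0589 and 0.0573), and that of LAPTM5 without sorafenib 1 (0.0580). KCNN4 in oxaliplatin was lost without untreated 2 or 3 or oxaliplatin 1 or 2 (0.0504 to 0.0785).

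Of 34 regulators and partners of p53, 33 were tested, and in oxaliplatin 8 were called higher and 7 lower (45.5% against 31.7% of all genes, median -0.00). HIPK2, a kinase that phosphorylates p53, averaged 295 ± 12.9 CPM in oxaliplatin, 172 ± 50.1 CPM in sorafenib and 88.4 ± 17.4 CPM in untreated libraries (SD, n = 3 each). It rose in oxaliplatin (1.74 ± 0.22, adjusted p = 0.00145) and in sorafenib (0.96 ± 0.21, adjusted p = 0.0370). In oxaliplatin EP300, an acetyltransferase that acts on p53, rose by 1.75 ± 0.34 (adjusted p = 0.00693), and the ubiquitin ligases HUWE1 and UBE4B rose by 1.08 ± 0.17 and 0.91 ± 0.17 (adjusted p = 0.00294 and 0.00533). CHEK1, a checkpoint kinase, fell by 0.63 (adjusted p = 0.0124), and RPL5, a ribosomal protein that binds MDM2, fell by 0.47 (adjusted p = 0.0219). KAT5, an acetyltransferase, fell by 0.63 (adjusted p = 0.0175), and 38.6% of its exon length overlaps RNASEH2C on the opposite strand. SMYD2, a methyltransferase of p53, fell by 0.39 on the log2 scale (adjusted p = 0.0346).

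Sorafenib called 1 regulator higher, HIPK2, and 1 lower (6.06% against 4.8% of all genes, median -0.04). The lower one was PPP1R13L, an inhibitor of p53, with 52.1 CPM against 91.5 CPM in untreated libraries (-0.81 ± 0.13, adjusted p = 0.0133). Both were lost without untreated 2 or 3 or sorafenib 2 or 3 (0.0571 to 0.139), and HIPK2 also without oxaliplatin 1 or 2 (0.0647 and 0.0578). In oxaliplatin CHEK1 was lost without oxaliplatin 1 (0.0546), and KAT5, RPL5 and SMYD2 were each lost without oxaliplatin 1 or untreated 3 (0.0537 to 0.0997). RPL5 and SMYD2 were also lost without untreated 2 (0.0793 and 0.122), KAT5 and SMYD2 without oxaliplatin 2 (0.0652 and 0.104), and SMYD2 without oxaliplatin 3 (0.0610).

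**Figure D4:**
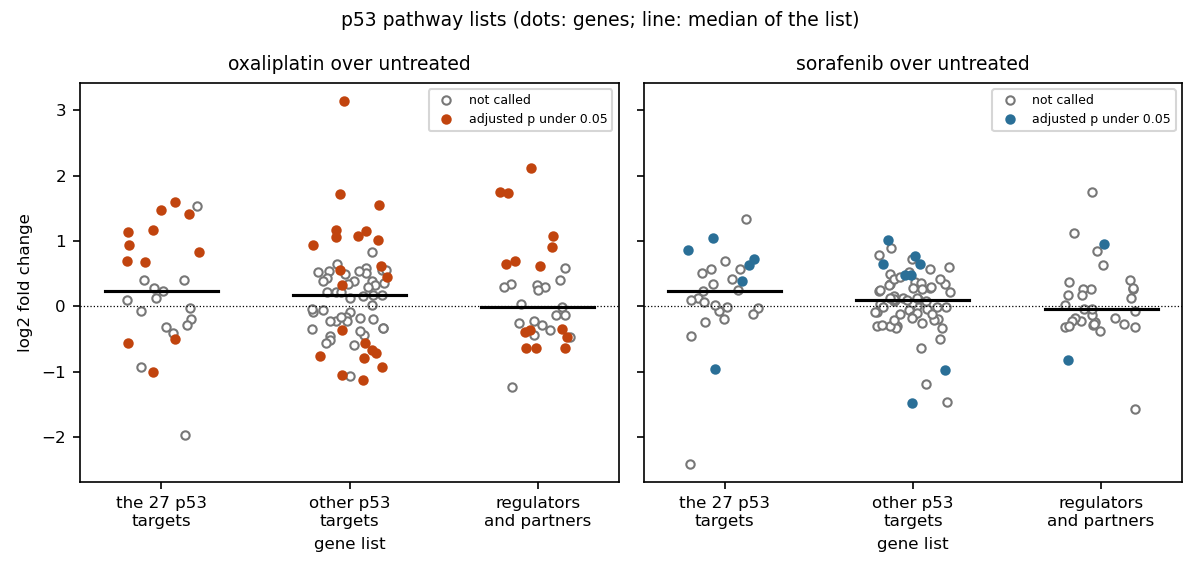
Each dot gives the log2 fold change of 1 tested gene over untreated cells in oxaliplatin (left) and sorafenib (right), for the 27 tested p53 targets, 69 other p53 targets and 33 regulators and partners. Filled dots passed the test and the line is the median of the list. In oxaliplatin the medians are 0.23, 0.18 and -0.00, and called genes stand on both sides of 0 in each list.

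Over all genes, exon length moved with the direction of change. For all genes tested in oxaliplatin the median exon length was 6909 bases in those called higher and 3130 bases in those called lower. It was 6883 and 3650 bases in sorafenib, and 6263 and 3603 bases between the drugs. In oxaliplatin the 9 targets called higher had a median of 5121 bases, near the 5044 bases of the 15 not called. The 3 targets called lower had 2069 bases. With each library corrected for GC content and length, 9 targets were called higher and 5 lower in oxaliplatin, the added ones being MDM4 and AEN. The part of length in these results beyond that was not tested.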

How the data were processed

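Per the submitters' processing notes, the deposited values are integer counts per gene made by the authors with featureCounts against GRCh38, and DESeq2 is named for their own comparison. The aligner, annotation release, strand setting and versions are not given in the sources used here, so reads of overlapping genes on either strand cannot be told apart. Each of the 9 files held 1 library, and 60683 genes were read.

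The counts were fitted in R 4.3.3 with edgeR 4.0.16: filterByExpr by group (16159 genes), TMM factors of 0.944 to 1.05, and a robust quasi-likelihood fit of all 9 libraries by group (biological coefficient of variation 0.224). Oxaliplatin and sorafenib were each tested 2-sidedly against untreated and against each other, with Benjamini-Hochberg adjustment over all genes and a call at an adjusted p under 0.05. A standard error is the absolute log2 fold change over the square root of F. CPM used the TMM factors, and TPM used exon lengths of GENCODE v29. The depth of 15797076 to 20936536 counts makes 3 counts, the limit that 0 allows, equal to 0.143 to 0.190 CPM. The procedure was tested on simulated data. Figures used Python 3.11.15 with pandas 2.3.3 and matplotlib 3.10.9.

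Members and lists were chosen with earlier results of these data known. The naming rule took all members, giving library values for those called in any comparison and for MDM2, MDM4 and PPM1D. From each other list it took up to 4 genes with the smallest adjusted p in each direction of each drug contrast, among those called with a mean of at least 1 CPM, and 8 fixed genes (CDKN1A, RRM2B, POLH, BAX, BBC3, DDB2, XPC, GDF15). The library values of ZMAT3 were added after they were seen. Items withheld for evaluation are not reported here. Alternatives were DESeq2 1.42.0, RLE factors, library size alone, no filter, a filter at a mean of 1 CPM, 2-group fits, the replicate number as a block, a loess correction for GC content and length (span 0.5, GENCODE v29), that correction with the block, and leaving out each library. Markers of immune cells (7 of 8) and of fibroblasts and endothelium (6 of 8) had a median under 1 CPM. The exceptions included CD68, and COL1A1, which reached 43.0 CPM in an untreated library and 1.93 CPM at most in sorafenib.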

Additional observations from a re-analysis of the deposited data

How the results depend on the processing

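Leaving out each library in turn gave 9 to 10 p53 targets called higher and 3 to 4 lower in oxaliplatin, 0 to 7 higher and 0 to 1 lower in sorafenib, and 2 to 4 higher and 2 to 3 lower in oxaliplatin against sorafenib. Over all genes the calls in these fits ranged from 2913 to 5403 in oxaliplatin, 113 to 1743 in sorafenib and 572 to 1949 between the drugs. No target was called higher in sorafenib without untreated 3 or without sorafenib 3. In those fits 98 of 16598 and 76 of 16591 genes tested were called higher, so few calls were left for any list. The other p53 targets gave 7 to 19 higher and 3 to 14 lower, 0 to 8 and 0 to 2, and 1 to 6 and 3 to 7 in the same comparisons. The regulators and partners gave 6 to 10 and 0 to 7, 0 to 6 and 0 to 2, and 0 to 3 and 0 to 1.

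With DESeq2, 5 targets were called lower in oxaliplatin and 2 in sorafenib, and 4 regulators higher and 2 lower in sorafenib. With the GC and length correction, 5 targets were called lower in oxaliplatin, 5 higher in oxaliplatin against sorafenib, 2 regulators higher in sorafenib and 1 lower between the drugs. Library size alone gave 24 other targets higher and 3 regulators lower in oxaliplatin, and no filter gave 4 regulators lower in oxaliplatin and 2 higher in sorafenib. Fits of only the groups compared gave in sorafenib 0 targets lower, 3 other targets higher, 1 lower and 0 regulators higher.

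The labels state no pairing by replicate number. Same-numbered libraries had deviations from their group means correlated at -0.11 to 0.03, and differently numbered ones at -0.099 to 0.154. With 3 libraries a group these deviations sum to 0, so the values cannot show whether samples were handled in pairs. With the replicate block, sorafenib gave 1 target higher and 0 lower, 1 other target in each direction and 0 regulators in either. It gave 8 other targets higher and 2 regulators lower in oxaliplatin, and 1 other target and 1 regulator higher in oxaliplatin against sorafenib. All genes called numbered 3773, 184 and 809 with the block, against 5123, 775 and 1659 without, and 5587, 1796 and 2417 with DESeq2. The block with the GC and length correction gave 4 other targets lower, 5 regulators higher and 4 lower in oxaliplatin. In sorafenib it gave 3 targets higher, 0 lower, 1 other target lower and 0 regulators in either direction, and TRIAP1 was lost in oxaliplatin (adjusted p = 0.0549). Singly, other targets newly called were PPM1D and PLK2 (adjusted p = 0.0322 and 0.0170) with library size alone, PLK2 (0.0473) and MDM4 (0.0466) at a mean of 1 CPM, and AEN with DESeq2 (0.0465), all in oxaliplatin. With the GC and length correction PLK3 in sorafenib (0.0465) and TP53I3 and ACER2 between the drugs (0.0424 and 0.0454) were called, and TP53INP1 between the drugs in a 2-group fit (0.0307). The cause of these shifts was not tested.

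None of the single genes whose direction changed had been called. With the GC and length correction the reversed values were in oxaliplatin MDM2 (-0.13), FDXR (0.24), BBC3 (0.048), DDB2 (0.022) and GDF15 (0.26), in sorafenib FDXR (0.12), PIDD1 (0.027), SUSD6 (0.012), BAX (0.0025), BBC3 (0.16) and FOSL1 (0.089), between the drugs ZMAT3 (-0.014). With that correction and the block the reversed values were in oxaliplatin MDM2 (-0.13), FDXR (0.24), BBC3 (0.049), DDB2 (0.028) and GDF15 (0.26), in sorafenib FDXR (0.12), AEN (-0.0001), PIDD1 (0.028), SUSD6 (0.018), BAX (0.0013), BBC3 (0.16) and FOSL1 (0.082), between the drugs ZMAT3 (-0.022). With library size alone the reversed values were in oxaliplatin FDXR (0.045), DRAM1 (0.085) and DDB2 (0.055), in sorafenib RPS27L (0.018), SUSD6 (0.032) and ENC1 (0.0039), between the drugs CYFIP2 (0.048). SUSD6 in sorafenib turned to 0.0040 (mean of at least 1 CPM), 0.0053 (replicate block) and 0.0009 (only the 2 groups compared). FDXR between the drugs turned to -0.0020 (RLE factors), -0.011 (no filter on low counts) and -0.0023 (DESeq2). Over the fits without 1 library the values that changed sign ranged in oxaliplatin DRAM1 from -0.081 to 0.016 and DDB2 from -0.18 to 0.045, in sorafenib GADD45A from -0.021 to 0.17, PLK2 from -0.0021 to 0.15, FDXR from -0.26 to 0.013, RPS27L from -0.15 to 0.10, AEN from -0.058 to 0.074, SUSD6 from -0.11 to 0.17, BBC3 from -0.30 to 0.032, DDB2 from -0.064 to 0.17, GDF15 from -0.061 to 0.17 and ENC1 from -0.076 to 0.027, between the drugs CYFIP2 from -0.096 to 0.047, FDXR from -0.087 to 0.19 and LAPTM5 from -0.015 to 0.31. Of these GDF15 alone passed the test with its new sign (adjusted p = 0.0241 in oxaliplatin with the GC and length correction).

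Depth limits ACER2, PGF and the 5 untested targets, whose levels are near or under 1 CPM. The direction of values near 0 is not settled by these libraries. Leaving out a library in a 3-against-3 design leaves 2, which are assumed to vary like the others.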

Other observations

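In the count tables the untreated libraries held more genes that differ at least 4-fold between the lowest and the highest library of a group than the drug-treated ones did. There were 201 such genes (1.24% of those tested) in oxaliplatin, 182 (1.13%) in sorafenib and 279 (1.73%) in untreated libraries. Each untreated library held a set of genes at least 4-fold below both others, 35 genes in untreated 1, 37 in untreated 2 and 36 in untreated 3. MDM4 was in the set of untreated 2 and ZMAT3 in that of untreated 3. No p53 target stood 4-fold above both other libraries of its group in any of the 9 libraries. Over all 16159 genes tested only 7 to 27 a library did, so this is no trait of the targets.

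The lists also differed in exon length by direction in oxaliplatin. Among the other p53 targets the median exon length was 6452 bases in those called higher and 3274 bases in those called lower. Among regulators and partners it was 14196.5 and 3963 bases.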
